A study of Homo sapiens with 32 samples.

Results

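The members described here are the transcripts of 10 genes of heterogeneous nuclear ribonucleoproteins (hnRNPs), HNRNPA1, HNRNPA2B1, HNRNPC, HNRNPD, HNRNPDL, HNRNPH1, HNRNPK, HNRNPL, HNRNPM and HNRNPU, out of 64449 annotated genes outside the mitochondrial chromosome. They were chosen by gene family, and every tag on the gene strand between the annotated start and end of these genes was taken and divided into exon, intron and 3′ UTR. A tag is 1 cDNA, counted after removal of PCR copies by random barcodes and placed at the base where the protein was crosslinked to RNA. The data are iCLIP, in which UV light joins protein to RNA in living cells, the protein is pulled down and reverse transcription stops next to the joined base.

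The cells were HEK293T FlpIn, an established human embryonic kidney line that holds a recombination site for an inserted transgene. Each line expressed FLAG-tagged Alyref, FLAG-tagged Chtop, FLAG-tagged Nxf1 or the FLAG tag alone (Control), with 3 libraries per group. Tetracycline induced the proteins over 48 h, with 10 ng/mL in the Alyref and Chtop lines but 5 ng/mL in the Nxf1 line, and the dose of Control is not given in the sources used here. All values are therefore those of tagged proteins expressed from a transgene, and the dose differed between Nxf1 and the other factors. Whether the libraries of a group came from separate cultures is not given in the sources used here, so p-values measure the spread between these libraries.

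TREX, which contains Alyref and Chtop, loads onto mRNA while it is being transcribed and spliced and hands it to Nxf1, the receptor that carries it through the nuclear pore. The hnRNPs are abundant nuclear proteins that coat nascent transcripts and steer splicing, export and decay. Many of them act on their own pre-mRNA, where retention of an intron or inclusion of an exon with a premature stop lowers the amount of functional mRNA. The transcripts of hnRNP genes are thus both the product and the target of RNA processing.

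The libraries held 7017 to 631704 tags, with the fewest in replicate 1 of each group. A count of 0 allows up to 3 tags, which is 4.75 CPM (tags per 1000000 tags of the library) in Alyref 2 and 428 CPM in Control 1. Intervals and these limits cover counting error only. Transcripts of the tagged factors themselves were used to check the labels. CHTOP tags were higher in Chtop than in Control by 2.87 on the log2 scale (edgeR adjusted p = 0.0116), NXF1 tags were higher in Nxf1 than in Chtop (log2 Chtop against Nxf1 -1.91, adjusted p = 0.00102) but did not pass against Control (2.55, adjusted p = 0.297), and ALYREF, with 40 tags in Alyref and 0 in Control, was too sparse to be tested. Of the markers of HEK293T cells, VIM had 98 tags in Alyref, 91 in Chtop, 30 in Nxf1 and 8 in Control, whereas NEFM, also fixed as a marker, had 1 tag in all. In the same order of groups, PAX2 had 28, 13, 7 and 2 tags, NEFL 12, 25, 7 and 0, and LHX1 7, 9, 0 and 1. Markers of leukocytes (PTPRC), hepatocytes (ALB), erythroid cells (HBB) and heart muscle (MYH6) had at most 7 tags in any group. NEFM and LHX1 were thus not clearly apart from these. No measure of RNA amount was used, so more RNA of a gene and more crosslinking per RNA cannot be told apart.

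The following windows show the stretches of RNA that the results below turn on. Each is the stretch of 30 bases with most tags over the 9 factor libraries within the named exon or intron, read 5′ to 3′ on the gene strand from GRCh37, and capitals mark bases with at least 1 tag in a factor library.
HNRNPA2B1 intron 10 (chr7:26231964-26231993, minus strand): TATTTTTtttTtaCtCttTacttctgttGa
HNRNPA2B1 exon 1 (chr7:26240292-26240321, minus strand): TTGTTTcTcGAGcaGcGgcaGTTCtCAcTA
HNRNPH1 exon 14 (chr5:179041779-179041808, minus strand): CTTTTTTTTTTTTTTTTTTTTTTCTTTaAg
HNRNPU exon 7 (chr1:245021422-245021451, minus strand): CTGTgcaGTtgaATTTaaTtTtggTcagaa
HNRNPL intron 6 (chr19:39332151-39332180, minus strand): TTTTCcATTTTgtaAtgactggtaaCaAaa
HNRNPDL intron 7 (chr4:83346997-83347026, minus strand): TtaactTtaaagtCtTatctcactTTCTTt
The window of HNRNPA2B1 intron 10 was tagged by Alyref alone, with 24 tags. The window of HNRNPH1 exon 14, a run of T, held 7, 27 and 20 tags in Alyref 1 to 3, 0, 20 and 32 in Chtop, 0, 1 and 12 in Nxf1 and 1, 0 and 0 in Control, so that the 13 tags of Nxf1 came down to 1 without Nxf1 3. Thymine made up 13.3% to 83.3% of the letters in the 20 such windows of the densest exon and intron of each member, and was above its share in the gene body in 15 of them.

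Alyref left the largest part of its tags on the hnRNP transcripts. They held 0.369%, 0.327% and 0.322% of all tags in Alyref 1 to 3, 0.238%, 0.254% and 0.292% in Chtop, 0.307%, 0.284% and 0.172% in Nxf1 and 0.157%, 0.249% and 0.160% in Control. All 3 Alyref libraries lay above the other 9, while Nxf1 overlapped Chtop and Control. The shallow libraries fix little, since Control 1 held 11 tags on these genes (95% Wilson interval 0.0876% to 0.281% of its tags) and Nxf1 1 held 25 (0.208% to 0.453%). HNRNPU, HNRNPH1 and HNRNPA2B1 were the most tagged members, with 1810, 1391 and 1164 tags over the 9 factor libraries, and ranked 34, 65 and 100 among 17414 protein-coding genes with a tag. HNRNPD was the least tagged with 295.

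**Figure D1:**
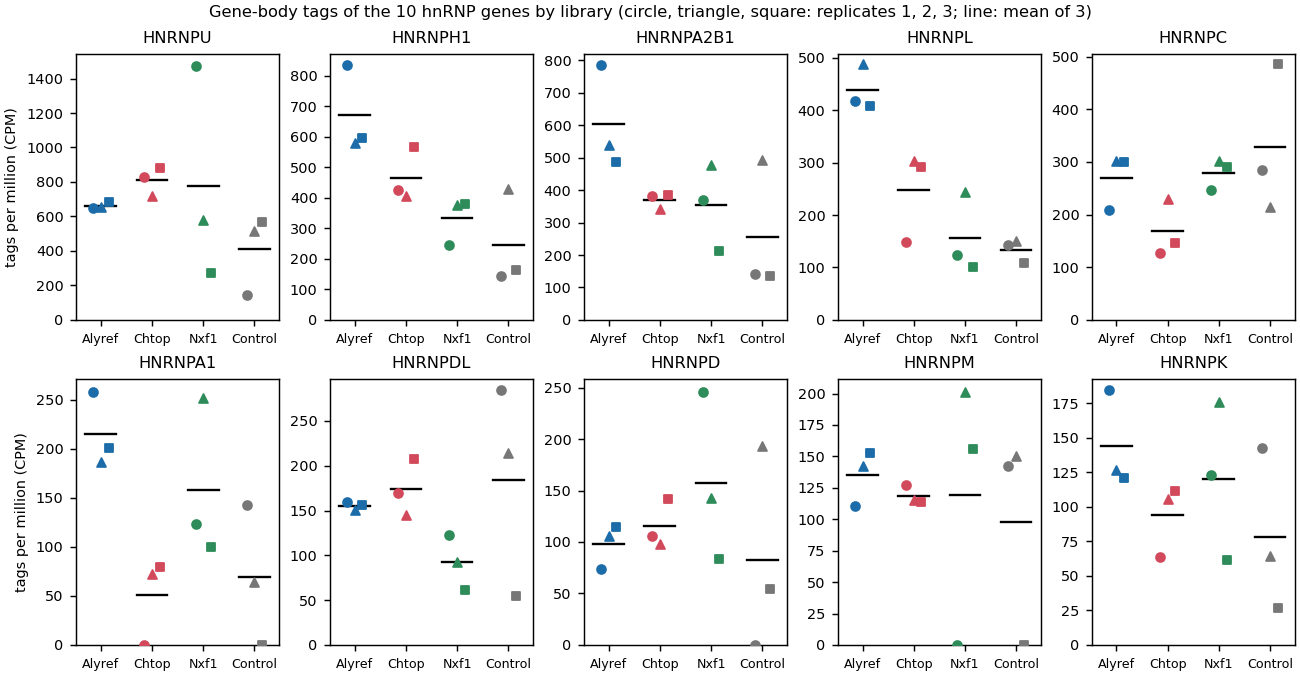
CPM on the gene body (vertical axis, linear from 0) of each of the 10 hnRNP genes, by group. Points are libraries, with circle, triangle and square for replicates 1, 2 and 3, and the line is the mean of 3. HNRNPA1, HNRNPH1, HNRNPL and HNRNPU show Alyref above Control in every library, and HNRNPDL and HNRNPH1 show Nxf1 below Alyref and Chtop in every library.

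The main comparison asked on which hnRNP transcripts a factor left more tags than the FLAG tag alone. No member passed the test against Control for any factor with edgeR or with DESeq2. Over all 3864 genes tested by edgeR, the share called in either direction was 0.0259% against Control in Alyref, 13.5% in Chtop and 0% in Nxf1. At an unadjusted p under 0.05, 4 of the 10 members had a difference in Alyref, 2 in Chtop and 1 in Nxf1. Over all 3864 genes these counts were 641, 1283 and 292. The median log2 difference of the members from Control was 0.78 in Alyref, beside 0.23 over all genes tested, 0.49 in Chtop beside 0.25, and 0.37 in Nxf1 beside 0.17. These comparisons share the Control libraries. With DESeq2's size factors, the medians of all genes were 0.04, 0.08 and 0.06, lower than with edgeR's scaling in each factor.

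The places of most tags differed between members. The exon with most tags per kb over the factor libraries was the first in HNRNPA1 and HNRNPA2B1 and the last in HNRNPH1 (exon 14) and HNRNPM (exon 16). In the other 6 it was an inner exon, exon 2 in HNRNPC and HNRNPK, exon 3 in HNRNPDL, exon 4 in HNRNPL, exon 7 in HNRNPU and exon 8 in HNRNPD, at 122 to 595 tags per kb. The densest introns, at 11.3 to 391 tags per kb, were intron 3 of HNRNPU, intron 6 of HNRNPK and HNRNPL, intron 7 of HNRNPDL, intron 8 of HNRNPC and HNRNPD, intron 10 of HNRNPA1, HNRNPA2B1 and HNRNPH1 and intron 14 of HNRNPM. In most members no base stood out, since the most tagged base held 2 to 5 tags over the 9 factor libraries in 7 of them, and 7, 8 and 12 in HNRNPA2B1, HNRNPU and HNRNPH1.

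HNRNPA1 encodes an abundant splicing repressor that shuttles between nucleus and cytoplasm (chr12:54673977-54680872, plus strand). Its transcript had 21, 118 and 121 tags in Alyref 1 to 3, 0, 39 and 34 in Chtop, 1, 30 and 18 in Nxf1 and 1, 3 and 0 in Control. The levels were 215 ± 37.9 CPM (mean ± SD, n = 3) in Alyref, 50.5 ± 43.9 in Chtop, 158 ± 81.6 in Nxf1 and 69.0 ± 71.4 in Control. All Alyref libraries were above all Chtop libraries, and so were all Nxf1 libraries. Alyref exceeded Chtop by a log2 difference of 1.49 (SE 0.34, edgeR adjusted p = 0.00480), where 14.1% of all genes were called and 1 of 10 members. Chtop was below Nxf1 by -1.43 (SE 0.41, adjusted p = 0.0147), where 23.8% of all genes were called and, again, 1 of 10 members. Both calls were lost with DESeq2 (adjusted p = 0.0729 and 0.0774). The call between Alyref and Chtop was lost without Alyref 2 (1.72, adjusted p = 0.0546) or Alyref 3 (1.59, 0.0629), and that between Chtop and Nxf1 without Nxf1 2 (-0.85, 0.271) or without a filter on low counts (-1.23, 0.173). An unnamed long noncoding RNA (ENSG00000258344) covers 100% of the HNRNPA1 body on the same strand, so that all of these tags lie in 2 annotated genes.

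Exons held 234 of the 260 HNRNPA1 tags of Alyref, although its exons are hard to map. Of the bases of its coding sequence, 29.3% begin a word of 30 bases that is found only here in the genome, against 74.8% of its 3′ UTR and 99.5% of its introns. Uniquely mapped reads alone were kept, and exons of HNRNPA1, HNRNPC (32.9% of the coding sequence) and HNRNPK (49.3%) have fewer such bases than their introns. Whether this moved the values was not tested, and reads shorter than 30 bases were also kept. The densest part of HNRNPA1 was exon 1, which held 29, 7, 6 and 1 tags in Alyref, Chtop, Nxf1 and Control.

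HNRNPA2B1 encodes a relative of HNRNPA1 that acts in splicing and in transport of RNA (chr7:26210771-26241149, minus strand). Its levels were 604 ± 161 CPM in Alyref, 370.0 ± 23.1 in Chtop, 353 ± 134 in Nxf1 and 257 ± 205 in Control, and no difference in gene tags passed the test. The groups differed in where the tags lay. Its introns held 22, 64 and 49 tags in Alyref 1 to 3, 2, 20 and 13 in Chtop, 0, 22 and 22 in Nxf1 and 1, 7 and 1 in Control. As a share of tags in the canonical transcript with libraries pooled, that was 20.4% (95% Wilson interval 17.5% to 23.7%) in Alyref, 10.1% (7.34% to 13.7%) in Chtop, 47.8% (37.9% to 57.9%) in Nxf1 and 36.0% (20.2% to 55.5%) in Control. Chtop thus had the lowest intron share, and Nxf1 the highest. Most of these bases are exons in other annotated isoforms, which make up 61.9% of the intronic bases and held 82.2% of the intronic tags in Alyref, 80.0% in Chtop and 86.4% in Nxf1.

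Whether a region moved apart from the rest of its gene was tested with edgeR's test of differential usage, for the 11 member regions that passed the filter, namely the coding sequence (CDS) and introns of HNRNPA2B1, HNRNPH1, HNRNPL and HNRNPU and the 3′ UTR of all of these but HNRNPL. The introns of HNRNPA2B1 were used less by Chtop than by Nxf1 (log2 usage difference -2.23, SE 0.48, adjusted p = 0.000157). In that comparison 52.1% of all 885 regions were called and 3 of the 11 of the members. In the comparisons of Alyref with Control, Alyref with Nxf1 and Nxf1 with Control, 0 member regions were called by edgeR (3, 2 and 0 at an unadjusted p under 0.05), where 2.15%, 5.08% and 0% of all regions were. The lower use of the introns by Chtop than by Nxf1 was called in all 4 alternatives in which the region was tested and without each of the 12 libraries (adjusted p 0.000106 to 0.0351). With exons of any annotated isoform left out of the introns, the region was not among those tested. The introns were also used less by Chtop than by Control (-1.91, SE 0.76, adjusted p = 0.0408; 32.7% of regions called, 3 of 11 of the members) and more by Alyref than by Chtop (1.20, SE 0.43, adjusted p = 0.0373; 16.2% called, 2 of 11). The call against Control was kept without Chtop 2, Nxf1 1 or Nxf1 3 and lost without each of the other 9 libraries, with adjusted p up to 0.524 without Control 2. That between Alyref and Chtop was lost without Nxf1 2 and without each Alyref and Chtop library, with adjusted p up to 0.371 without Chtop 3. Both were lost without a filter on low counts (0.318 and 0.134) and with the replicate number as a block (0.0589 and 0.0821).

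The intronic tags of HNRNPA2B1 came mostly from intron 1 and from intron 10. Intron 1 (2839 nt) had 6, 27 and 29 tags in Alyref, 2, 9 and 6 in Chtop, 0, 12 and 12 in Nxf1 and 1, 4 and 0 in Control. In the test of single exons and introns, 2 member parts (exons 1 and 14 of HNRNPU) passed the filter and 0 were called in any comparison (also 0 at an unadjusted p under 0.05), where 0.450%, 4.05%, 0%, 4.50%, 0% and 10.4% of 222 parts were called for Alyref, Chtop and Nxf1 against Control, Alyref against Chtop, Alyref against Nxf1 and Chtop against Nxf1. With at least 10 tags as the only filter, and HNRNPA2B1 intron 1 among the parts tested, it was used less by Chtop than by Nxf1 (-2.46, SE 0.61, adjusted p = 0.0124). It was the only part called in the members in that test, of 114 parts tested in each of the 6 comparisons. Between Chtop and Nxf1, 702 of all 44638 parts were called with that filter. Intron 10 is the last intron, only 156 nt long, and lies after the stop codon, in the 3′ UTR. It held 12, 20 and 10 tags in Alyref, 0, 6 and 2 in Chtop, 0, 6 and 5 in Nxf1 and 0 in each Control library, or 391 tags per kb over the factor libraries. With at least 10 tags as the only filter, its difference in usage between Chtop and Nxf1 (-2.51, SE 0.77, adjusted p = 0.0605) and between Alyref and Chtop (1.73, SE 0.64, adjusted p = 0.142) did not pass the test.

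Within HNRNPA2B1 intron 10 all factors had tags in the first 100 nt, and Alyref alone had tags beyond it. Between 100 and 150 nt from the 5′ splice site, next to the 3′ splice site, Alyref had 26 tags and Chtop and Nxf1 had 0. In the bins of 50 nt before it Alyref had 9 and 7 tags, Chtop 4 and 4, and Nxf1 5 and 6. The window of 30 bases printed above is the T-rich stretch of this part, with 9, 10 and 5 tags in Alyref 1 to 3. Chtop and Nxf1 had only 8 and 11 tags in the whole intron, and the difference in place was not tested.

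**Figure D2:**
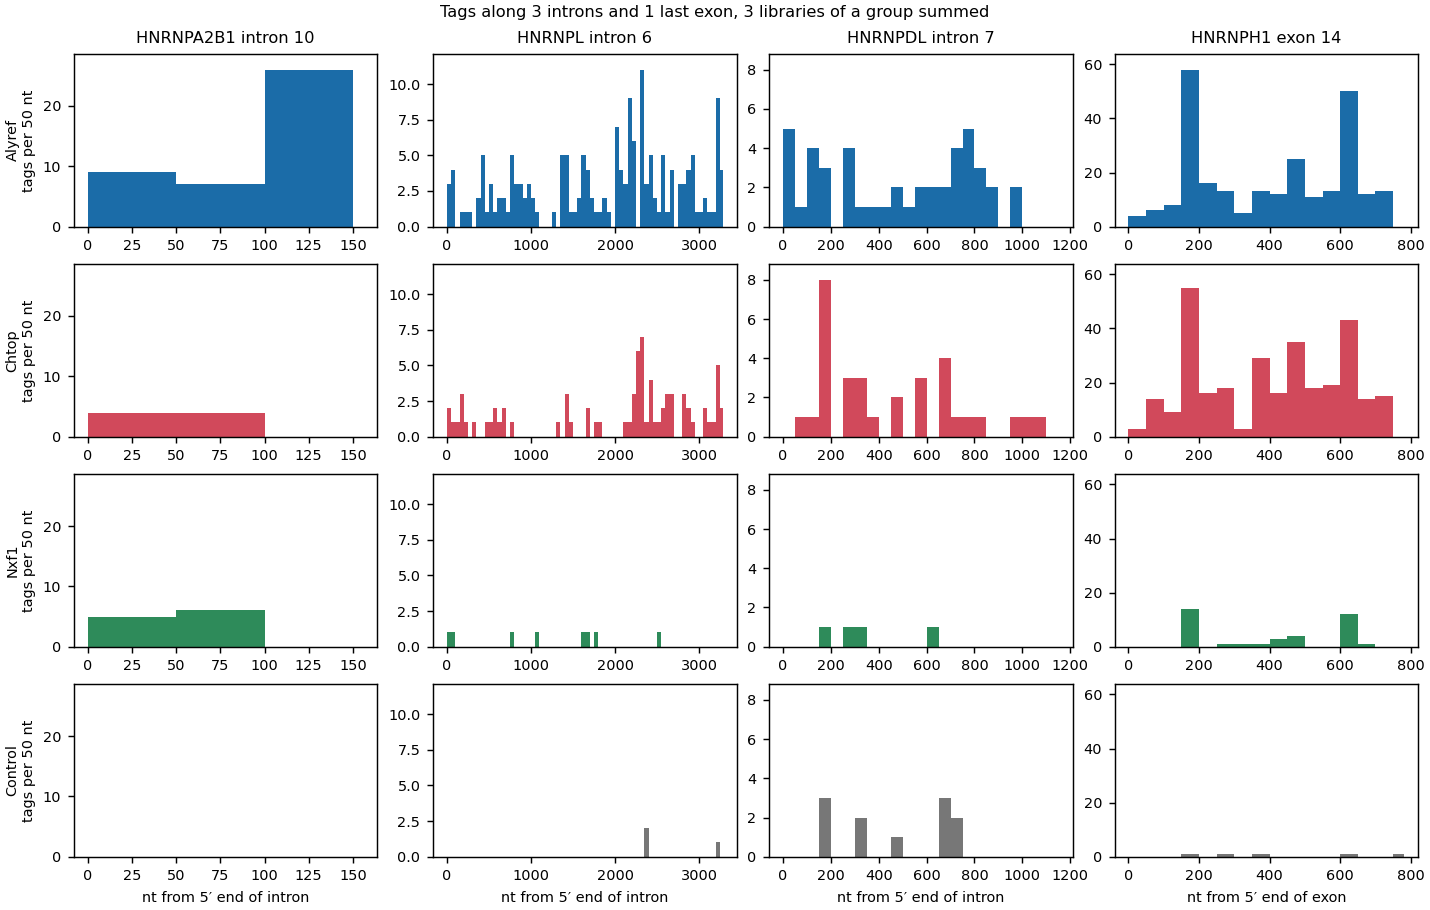
Tags per 50 nt (vertical axis, shared within a column) against distance from the 5′ end of the intron or exon (nt), for 3 introns and the last exon of HNRNPH1, with the 3 libraries of a group summed and groups in rows. In HNRNPA2B1 intron 10 the bin from 100 to 150 nt holds 26 tags of Alyref and 0 of Chtop, Nxf1 and Control, and in HNRNPH1 exon 14 Alyref, Chtop and Nxf1 have most tags in the bin from 150 to 200 nt (58, 55 and 14).

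HNRNPD (AUF1) binds AU-rich elements and steers mRNA decay, and HNRNPDL is its paralog (chr4:83273651-83295656 and chr4:83343718-83351615, both on the minus strand). Neither was called between any groups in gene tags. HNRNPD had 6, 67 and 69 tags in Alyref, 5, 53 and 61 in Chtop, 2, 17 and 15 in Nxf1 and 0, 9 and 2 in Control. HNRNPDL had 13, 95 and 94, 8, 78 and 89, 1, 11 and 11, and 2, 10 and 2 in the same order, and its Alyref libraries agreed closely, at 155 ± 4.77 CPM. The comparison of HNRNPDL between Chtop and Nxf1 came nearest to the threshold (log2 1.00, SE 0.38, adjusted p = 0.0570).

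Alternative splicing of the introns in the 3′ UTR of HNRNPD and HNRNPDL is known to expose their mRNA to decay. In HNRNPA1, HNRNPA2B1, HNRNPD, HNRNPDL and HNRNPH1 the last intron lies after the stop codon. In the first 4 of these it was the intron with most tags per kb, at 69.3, 391, 18.3 and 70.3, whereas in HNRNPH1 it ranked 12 of 13. The value of HNRNPA1 rests on 16 tags over the factor libraries and that of HNRNPD on 21. Over all introns of HNRNPA1, HNRNPD and HNRNPDL, exons of other annotated isoforms held 100%, 19.7% and 83.3% of the intronic Alyref tags. Such exons make up 92.4%, 19.9% and 32.7% of the intronic bases of these genes. Of the members whose last intron lies before the end of the coding sequence, HNRNPC alone had its last intron ranked first, with 3 tags. Among other protein-coding genes with at least 4 introns and 10 intronic tags, the last intron was the densest in 13.8% of 667 genes where it follows the coding sequence and in 12.5% of 8828 genes where it does not. Intron 7 of HNRNPDL (1153 nt) held 5, 25 and 15 tags in Alyref, 0, 16 and 16 in Chtop, 0, 2 and 2 in Nxf1 and 1, 9 and 1 in Control, which is 11 of the 14 Control tags of the gene.

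HNRNPC encodes the subunits of the tetramers that bind U-tracts along pre-mRNA (chr14:21677295-21737653, minus strand). It was the member with the largest share of its tags in introns, 76.3% in Alyref, 72.0% in Chtop, 76.7% in Nxf1 and 93.3% in Control (28 of 30 tags). Its introns span 57131 nt and its exons 3165 nt. Per kb, Alyref had 5.18 tags in introns, 19.7 in the 3′ UTR, 23.9 in the CDS and 145 in the 5′ UTR. Its mean was lower in each factor than in Control, at 269.96 ± 52.7 CPM in Alyref, 168 ± 54.6 in Chtop, 279 ± 29.6 in Nxf1 and 329 ± 141 in Control. All Chtop libraries were below all Nxf1 libraries, and the other pairs of groups overlapped. The lower value of Chtop did not pass the test against Control (log2 -0.94, SE 0.43, adjusted p = 0.129) or against Nxf1 (-0.87, SE 0.37, adjusted p = 0.0778). Intron 2, which is 29081 nt long, took most of these tags, with 9, 82 and 84 in Alyref, 2, 49 and 23 in Chtop, 0, 17 and 24 in Nxf1 and 2, 5 and 16 in Control.

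HNRNPH1 binds runs of G and regulates splicing and polyadenylation (chr5:179041179-179061785, minus strand). Its levels were 671 ± 144 CPM in Alyref, 466 ± 89.0 in Chtop, 334 ± 76.5 in Nxf1 and 245 ± 160 in Control, with every Alyref library above the other 9, though above Chtop 3 by little (579 CPM in Alyref 2 and 568 in Chtop 3). The difference between Alyref and Control did not pass the test (log2 1.22, SE 0.48, adjusted p = 0.188). Exon 14, the last exon, was the densest exon of any member at 771 tags per kb. It held 24, 122 and 113 tags in Alyref, 14, 130 and 163 in Chtop, 2, 12 and 23 in Nxf1 and 1, 3 and 1 in Control. Chtop placed 64.6% (60.2% to 68.8%) of its HNRNPH1 tags in the 3′ UTR, against 33.4% (30.2% to 36.8%) for Alyref and 33.0% (25.0% to 42.2%) for Nxf1.

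The usage tests of HNRNPH1 gave 4 calls. The CDS was used more by Alyref than by Chtop (1.23, SE 0.38, adjusted p = 0.0137), with 25, 117 and 111 tags in Alyref and 2, 25 and 41 in Chtop. The introns were used less by Chtop than by Nxf1 (-1.34, SE 0.43, adjusted p = 0.00828) and than by Control (-1.99, SE 0.55, adjusted p = 0.00561), with 2, 58 and 34 tags in Chtop, 0, 24 and 28 in Nxf1 and 0, 15 and 5 in Control. The 3′ UTR was used more by Chtop than by Control (1.77, SE 0.72, adjusted p = 0.0446), and between Chtop and Alyref its difference did not pass (Alyref against Chtop -0.95, SE 0.37, adjusted p = 0.0566). The CDS call was lost without Alyref 2 (adjusted p = 0.189), Alyref 3 (0.247) or Chtop 2 (0.122). The intron call against Control was lost without Control 2 (0.366) or Control 3 (0.0669), and that against Nxf1 without Chtop 3 (0.0838), Nxf1 2 (0.0662) or Nxf1 3 (0.0614). The 3′ UTR call was lost without Control 2, Control 3, Chtop 1, Chtop 3 or any Alyref library, with adjusted p up to 0.589 without Control 2. Without a filter on low counts each of these calls was lost (adjusted p 0.0662 to 0.404), and with exons of any isoform so were those of the CDS (0.0596) and the 3′ UTR (0.0831). The introns were not among the regions tested with exons of any isoform. The 3′ UTR call was also lost with the replicate block (0.0622). Without the filter the 5′ UTR, which was not tested with it, was called as used more by Alyref than by Chtop (2.13, SE 0.61, adjusted p = 0.0375). In that comparison 846 of all 49983 regions were called without the filter. Exons of other isoforms make up 73.8% of the intronic bases of HNRNPH1 and held 71.8%, 60.6% and 80.8% of the intronic tags in Alyref, Chtop and Nxf1.

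The base with most tags in any member was also in HNRNPH1, and its place shows how the files assign contacts. It is the last base of intron 8, in capitals in this window of 21 bases.
HNRNPH1 intron 8 to exon 9 (chr5:179044641-179044661, minus strand): ttgtgttgtaGtttttttcac
HNRNPU intron 6 to exon 7 (chr1:245021567-245021587, minus strand): ctgtgtaacaGaactttgaaa
The HNRNPH1 base had 1, 4 and 1 tags in Alyref, 0, 3 and 3 in Chtop and 0 in Nxf1 and Control, and the most tagged base of HNRNPU, with 8 tags, was likewise the last base of an intron. A read that starts at the first base of an exon is placed on the base before it in the genome, which is the end of the intron whether or not the RNA was spliced. Such last bases held 30 of the 1317 intronic member tags of Alyref (2.28%), 18 of 642 of Chtop (2.80%), 1 of 275 of Nxf1 and 1 of 99 of Control. Leaving them out changed none of the usage calls of member regions.

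HNRNPK binds C-rich RNA through KH domains, HNRNPL binds CA repeats and HNRNPM binds GU-rich elements, each in the control of splicing. HNRNPL (chr19:39327010-39342987, minus strand) had 34, 308 and 246 tags in Alyref, 7, 163 and 125 in Chtop, 1, 29 and 18 in Nxf1 and 1, 7 and 4 in Control. The levels were 438 ± 43.4, 247 ± 85.6, 156 ± 76.8 and 134 ± 22.4 CPM, and every Alyref library was above every library of the other groups. Alyref exceeded Nxf1 by a log2 difference of 1.22 (SE 0.36, adjusted p = 0.0469), where 4.22% of all genes were called and 1 of 10 members. The call was kept without Chtop 1 or Chtop 3, and lost without each of the other 10 libraries, with adjusted p from 0.0515 without Chtop 2 to 0.383 without Nxf1 3. It was also lost with DESeq2 (1.15, adjusted p = 0.196), and with exonic tags only, scaled to the exonic tags of all genes, the difference was 0.16 (adjusted p = 0.802). Against Control the difference of Alyref was larger but did not pass (1.66, SE 0.46, adjusted p = 0.0987), although it did with the replicate block (0.0499). Other annotated genes cover 28.7% of the HNRNPL body on its strand.

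The intron of HNRNPL with most tags was intron 6 (chr19:39331200-39334481, 3282 nt). It held 12, 84 and 76 tags in Alyref, 2, 41 and 33 in Chtop, 1, 2 and 5 in Nxf1 and 0, 1 and 2 in Control, and no other annotated gene lies in it on that strand. That was 172 of the 242 intronic tags of Alyref and 76 of the 100 of Chtop. The exons held 339 tags in Alyref and 28 in Nxf1, counts that are not scaled for the depth of the libraries. Scaled to the exonic tags of all genes, the log2 difference of the exons between these groups was 0.16. Intron 6 did not pass the filter of the usage test, so its usage was tested with at least 10 tags as the only filter. Usage of the intron relative to the rest of the gene did not differ between Alyref and Chtop (log2 0.21, SE 0.45, adjusted p = 0.870) or between Alyref and Nxf1 (0.73, SE 0.65, adjusted p = 0.730) beyond the spread. Of the intronic tags of HNRNPL, 62.8% in Alyref and 72.0% in Chtop fell in exons of other annotated isoforms, which make up 36.7% of the intronic bases.

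HNRNPK (chr9:86582998-86595546, minus strand) had 15, 80 and 73 tags in Alyref, 3, 57 and 48 in Chtop, 1, 21 and 11 in Nxf1 and 1, 3 and 1 in Control. HNRNPM (chr19:8509651-8553998, plus strand) had 9, 90 and 92, 6, 62 and 49, 0, 24 and 28, and 1, 7 and 0 in the same order. Neither passed any test. HNRNPK resembled HNRNPH1 in where Chtop lay, with 57.01% (47.5% to 66.0%) of its tags in the 3′ UTR against 28.3% (21.9% to 35.8%) for Alyref. In HNRNPM that share was 19.7% (13.5% to 27.8%) against 9.42% (6.04% to 14.4%). The regions of these genes did not pass the filter of the usage test, and without a filter the 3′ UTR differences between Alyref and Chtop did not pass the test (HNRNPK -1.003, adjusted p = 0.239, and HNRNPM -0.99, adjusted p = 0.440).

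**Figure D3:**
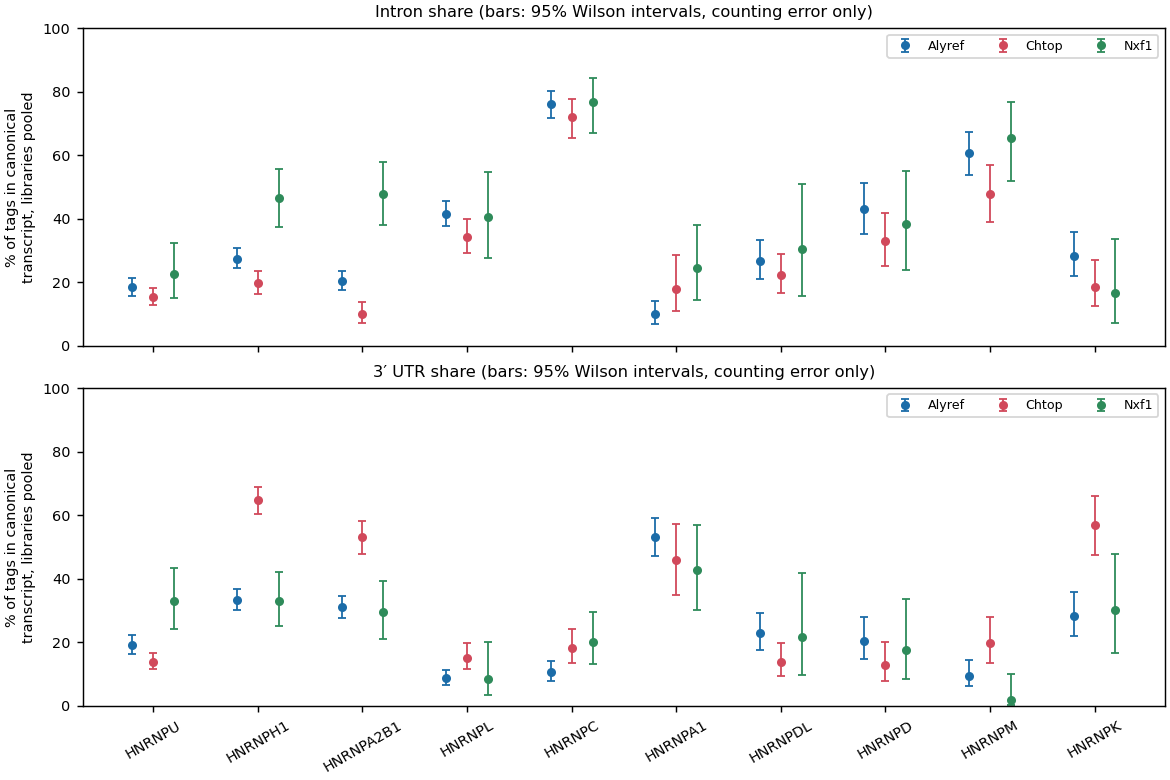
Share of tags of the canonical transcript (%, vertical axis) that lay in introns (top) and in the 3′ UTR (bottom), for each hnRNP gene and factor with the 3 libraries pooled. Bars are 95% Wilson intervals for counting error. For the 3′ UTR, Chtop stands above Alyref in HNRNPH1 (64.6% against 33.4%), HNRNPA2B1 (53.0% against 31.0%) and HNRNPK (57.01% against 28.3%), and also in HNRNPC, HNRNPL and HNRNPM. The order is the opposite in HNRNPU (13.8% against 19.0%), HNRNPA1 (45.8% against 53.1%), HNRNPD (12.7% against 20.4%) and HNRNPDL (13.7% against 22.8%).

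HNRNPU (SAF-A) binds RNA and chromatin and was the most tagged member (chr1:245003940-245027862, minus strand). It had 53, 412 and 411 tags in Alyref, 39, 387 and 378 in Chtop, 12, 69 and 49 in Nxf1 and 1, 24 and 21 in Control. The levels were 662 ± 16.9 CPM in Alyref, 809 ± 82.7 in Chtop, 776 ± 625 in Nxf1 and 408 ± 232 in Control, and no difference passed the test. All Chtop libraries were above all Alyref libraries, while Nxf1 ranged from 273 CPM in Nxf1 3 to 1475 in Nxf1 1, which rests on 12 tags. The CDS held 58.2% of the canonical tags in Alyref and 62.1% in Chtop, against 38.6% in Nxf1 and 30.4% in Control. The 3′ UTR was used less by Chtop than by Nxf1 (-1.12, SE 0.48, adjusted p = 0.0403), with 6, 51 and 39 tags in Chtop and 3, 17 and 9 in Nxf1. That call was kept without Alyref 3, Chtop 1, Chtop 2 or Nxf1 1 and lost without each of the other 8 libraries, with adjusted p up to 0.141 without Nxf1 2. It was lost without a filter on low counts (0.234), with exons of any isoform (0.133) and with the replicate block (0.0618).

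HNRNPU also had tags beyond the end of its canonical transcript. The annotated gene runs on for 9659 nt downstream, mostly as exons of other isoforms, and this stretch held 12, 80 and 83 tags in Alyref, 9, 45 and 56 in Chtop, 3, 18 and 21 in Nxf1 and 1, 14 and 8 in Control. These were 23 of the 46 HNRNPU tags of Control and 175 of the 876 of Alyref. HNRNPA2B1 has 18776 such bases, which held 33, 18, 5 and 4 tags in Alyref, Chtop, Nxf1 and Control.

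The pooled share of tags in first exons was higher in Alyref in some members and higher in Chtop in others. In HNRNPH1 exon 1 took 6.76% (4.97% to 9.14%) of exonic tags in Alyref and 1.05% (0.409% to 2.67%) in Chtop, and in HNRNPC 26.1% (18.2% to 35.9%) and 1.85% (0.328% to 9.77%). In HNRNPU the order was the opposite, with 15.4% (12.7% to 18.6%) in Alyref and 26.6% (23.2% to 30.3%) in Chtop, as in HNRNPDL, with 16.9% and 36.0%, HNRNPL, with 7.08% and 16.2%, and HNRNPD, with 29.6% and 41.8%. The latter 4 genes have the longest first exons of the members, 287 to 1215 nt against 63 to 175 nt in the other 6. No first exon was called between Alyref and Chtop. HNRNPU exon 1 was the only one to pass the filter (-0.57, SE 0.54, adjusted p = 0.845), and with at least 10 tags as the only filter the nearest were HNRNPC (2.99, SE 0.96, adjusted p = 0.0842), HNRNPH1 (2.25, SE 0.73, adjusted p = 0.0884) and HNRNPL (-1.38, SE 0.55, adjusted p = 0.179).

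The members were then divided at a first-exon length of 200 nt, a value chosen after these shares were seen. In the 4 with longer first exons, exon 1 took 17.5%, 13.8% and 14.1% of exonic tags in Alyref 1 to 3 and 14.3%, 25.2% and 30.3% in Chtop. In the 6 with shorter ones it took 10.7%, 10.1% and 13.2% in Alyref and 10.8%, 4.46% and 3.67% in Chtop. Chtop 1 rests on 42 and 37 exonic tags and overlapped Alyref in both sets. In all other protein-coding genes with short first exons the shares were 7.64% to 7.78% in Alyref and 1.71% to 3.03% in Chtop, and in those with longer ones 12.1% to 13.7% and 11.7% to 12.1%. The low Chtop share in short first exons was thus found in other genes too, whereas on longer first exons Chtop 2 and Chtop 3 had a higher share in the members than in other genes, with no test.

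**Figure D4:**
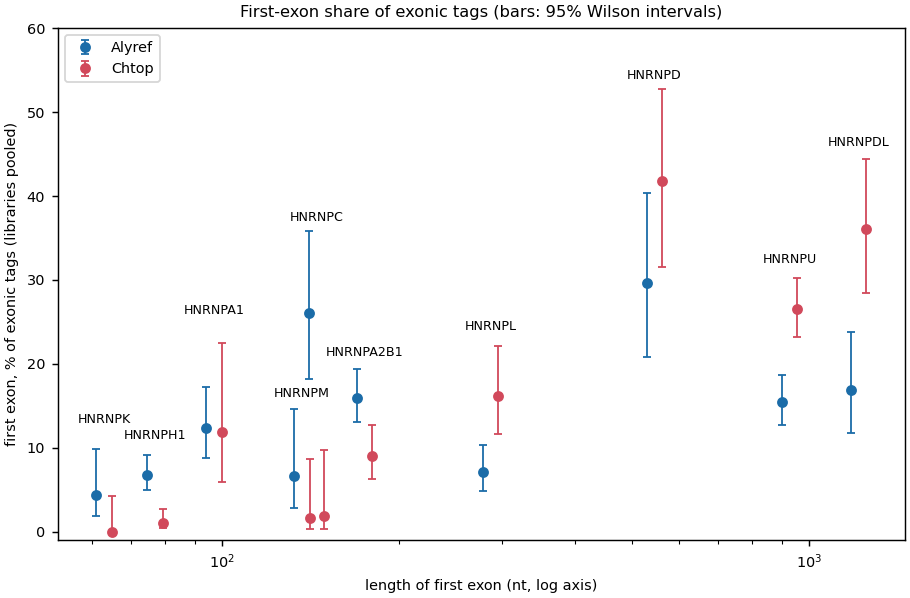
Share of exonic tags in exon 1 (%, vertical axis, libraries pooled, bars 95% Wilson intervals) against length of exon 1 (nt, log axis) for the 10 hnRNP genes in Alyref and Chtop, with points shifted slightly sideways. Alyref lies above Chtop in the 6 genes with first exons of 63 to 175 nt, narrowly in HNRNPA1, and below it in the 4 with first exons of 287 to 1215 nt.

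Summed over the members, introns took 31.9% to 33.1% of tags of the canonical transcripts in the 3 Alyref libraries, 19.9% to 29.5% in Chtop, 9.09% to 53.5% in Nxf1 and 60% to 64.0% in Control. In the other protein-coding genes the ranges were 42.4% to 51.7%, 25.1% to 40.8%, 38.5% to 73.9% and 56.0% to 83.6%. The 3′ UTR took 23.6% to 25.9% of member tags in Alyref and 28.8% to 37.3% in Chtop, and 14.4% to 16.7% and 25.9% to 35.5% in the other genes. The intron share was lower in the members than in other genes within each Alyref, Chtop and Nxf1 library. It was also lower in Control 2 (61.6% against 79.2%) and Control 3 (64.0% against 83.6%). In Control 1, with 10 such member tags, it was higher (60% against 56.0%). The lower share was thus not limited to the factors, and whether it follows intron length was not tested. These sums follow the most tagged members and carry no test.

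Of the intronic member tags, 54.2% in Alyref, 59.5% in Chtop, 50.5% in Nxf1 and 50.5% in Control fell in exons of other annotated isoforms, which make up 22.7% of the intronic bases. The last 100 nt of introns, 6.04% of their bases, held 15.8% (13.9% to 17.9%) of intronic tags in Alyref, 13.6% (11.1% to 16.4%) in Chtop, 9.82% (6.84% to 13.9%) in Nxf1 and 20.2% (13.5% to 29.2%) in Control. Upstream of 56 internal exon-exon junctions, the stretch from 24 to 75 nt before the junction held 54.4% (50.7% to 58.0%) of the tags in the last 100 nt of the exon in Alyref, 50% (45.1% to 54.9%) in Chtop and 56.5% (44.8% to 67.6%) in Nxf1, where an even spread gives 52.0%. Downstream of the annotated transcript ends, 200 nt held 6 tags in Alyref and 4 in Chtop, against 165 and 140 in the 200 nt before the ends.

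The other hnRNP genes were taken as a list of 16 (HNRNPA0, HNRNPA3, HNRNPAB, HNRNPF, HNRNPH2, HNRNPH3, HNRNPLL, HNRNPR, HNRNPUL1, HNRNPUL2, SYNCRIP, PCBP1, PCBP2, PTBP1, RALY and RBMX), of which 9 passed the filter on low counts. Of these, 0 were called by edgeR against Control for each factor (0, 2 and 0 at an unadjusted p under 0.05). Over all 3864 genes, 0.0259%, 13.5% and 0% were called, and 641, 1283 and 292 genes had that unadjusted p. Between factors 1 was called, in the comparison of Alyref with Chtop. Of all genes, 14.1% were called there, 4.22% between Alyref and Nxf1 and 23.8% between Chtop and Nxf1. HNRNPA0, a gene without introns, was lower in Alyref (86.1, 50.7 and 68.0 CPM) than in Chtop (128, 128 and 177 CPM), with a log2 difference of -1.35 (SE 0.37, adjusted p = 0.0149). After it, the largest differences between these factors were those of RBMX (0.73, adjusted p = 0.0896), HNRNPR (0.72, adjusted p = 0.111), and HNRNPF and PTBP1 (both -0.45). Against Control, PTBP1 (0.81) and HNRNPH3 (0.77) were highest in Alyref, HNRNPA0 (1.74) and PTBP1 (1.26) in Chtop and HNRNPA0 (1.17) and HNRNPH3 (0.91) in Nxf1. SYNCRIP (-0.42, -0.35 and -0.64) and RBMX (-0.12, -0.84 and -0.74) were lowest in all 3, and none of these differences from Control passed the test.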

How the data were processed

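Crosslinked bases of 12 iCLIP libraries (32 lane runs, merged by the authors) were analysed. According to the labels and the study's methods, the authors removed phiX reads with Bowtie 1.1.2, handled random barcodes with UMI-tools 0.5.3, trimmed with Reaper, aligned uniquely to hg19 with STAR 2.4.2a and Ensembl 75 junctions, and removed duplicates. The deposited values are counts of tags per base, with the crosslinked base taken as the most 5′ deletion or else the base before the read. Columns of sample values left unused numbered 0.

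Tags were assigned by strand to GENCODE 44 genes on GRCh37, the build of the files, without the mitochondrial chromosome. A tag in 2 genes counted in both. Regions, exons and introns are those of the canonical transcript, and the 3′ UTR includes the stop codon. CPM are tags per 1000000 tags of the library. Gene tags were tested with edgeR 4.0.16 in R 4.3.3 (quasi-likelihood F-test, TMM, filterByExpr, 12 libraries in 1 fit), and usage of regions, exons and introns with its diffSpliceDGE, with Benjamini-Hochberg adjustment over all features and a threshold of 0.05. In every group, replicate 2 was sequenced on other HiSeq lanes than replicates 1 and 3, which shared theirs. Replicates 1 and 2 also had a MiSeq run. The replicate number thus marks the set of lane runs, but by the labels replicates 1 and 3 differ only in that MiSeq run. Blocked values are given where they change a call. Same-numbered libraries correlated at -0.157 to 0.321 in their deviations from the group means, and 9 of 12 correlated best with their own number. Scripts were tested on simulated data. DESeq2 1.42.0, filters, counting rules, a replicate block and leaving out each library were alternatives. Wilson intervals are at 95%.

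All 10 members were named, with for each the exon and intron of most tags per kb, described where they carry a result, any called part, and the window or base of most tags. The members and lists were chosen with earlier results of these data known.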

Additional observations from a re-analysis of the deposited data

How the results depend on the processing

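The number of members called was recomputed for gene tags, region usage and usage of single exons and introns in 6 comparisons each. Of these 18 counts 6 were above 0, and 56 of their 105 alternatives stayed within 1.5 times the reported count. No called member changed direction. For gene tags, 1 member was called between Alyref and Chtop, between Alyref and Nxf1 and between Chtop and Nxf1. These counts were 0, 0 and 0 with DESeq2 and with tags in 1 gene only, 1, 0 and 0 without a filter, 1, 0 and 1 with each base counted once, and 2, 2 and 3 with exonic tags only. With tags in 1 gene only HNRNPA1 could not be tested, because another gene covers 100% of its body on its strand. The counts of that setting are therefore no check of the HNRNPA1 calls. Leaving out single libraries gave 0 to 1, 0 to 1 and 0 to 2. For region usage, 3 member regions were called between Chtop and Control, 2 between Alyref and Chtop and 3 between Chtop and Nxf1. Without a filter these were 0, 1 (the HNRNPH1 5′ UTR, not tested with the filter) and 1, with exons of any isoform 2, 0 and 2, with each base counted once 2, 2 and 3, and without single libraries 0 to 3, 0 to 3 and 1 to 4. The calls with exons of any isoform were not among those reported. In that setting the reported intron calls were not tested, and the reported CDS and 3′ UTR calls were lost. For single exons and introns, 2 parts of HNRNPU passed the filter and 0 were called by edgeR (0 at an unadjusted p under 0.05), while with at least 10 tags as the only filter 1 was called between Chtop and Nxf1, and 0 to 1 without single libraries. Over all genes, calls for Alyref, Chtop and Nxf1 against Control, Alyref against Chtop, Alyref against Nxf1 and Chtop against Nxf1 numbered 1, 520, 0, 543, 163 and 921, and 8, 199, 1, 78, 23 and 261 with DESeq2, 39, 443, 1, 292, 117 and 750 without a filter, 38, 127, 0, 482, 313 and 344 with exonic tags only, and 8 for Alyref against Control with tags in 1 gene only. The usage fit that left out the last base of each intron was chosen after seeing the data.

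With the replicate number as a block, 1 member (HNRNPL, adjusted p = 0.0499) was called between Alyref and Control, where all genes gave 82 calls, and region calls were 1 between Chtop and Control, 1 between Alyref and Chtop and 2 between Chtop and Nxf1. The block ended 4 of the 8 region calls and, beside the added call of HNRNPL, changed no other call of a member. The causes of these changes were not tested. The Control libraries held 11, 116 and 59 tags on these genes.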

Other observations

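Uracil was the crosslinked base of 61.0%, 57.6% and 55.9% of member tags in Alyref 1 to 3, 51.8%, 56.6% and 58.7% in Chtop, 48.0%, 55.8% and 67.5% in Nxf1 and 54.5%, 56.9% and 62.7% in Control. Over all tags the shares were 44.3% to 56.4%. Nxf1 3 stood apart with 67.5% (95% Wilson interval 62.1% to 72.5%, 308 tags) against 53.4% of all its tags, and Nxf1 2, with 55.8% (50.4% to 60.9%) against 52.5%, did not.

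Contacts recurred at the same base in some members more than in others. Of 6208 member bases tagged in a factor library, 930 were tagged in at least 2 of the 9 and 75 in at least 4. HNRNPH1 held 49 of the latter and HNRNPU 15, while HNRNPC, with 627 tagged bases, held 0 and had 25 tagged in at least 2.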
